A study of Saccharomyces cerevisiae with 6 samples.

Results

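Meiosis and sporulation genes make a diploid yeast cell halve its chromosome number and pack the products into spores. Here 58 of them, of 7122 genes in the table, were followed in growing haploid cells, in which the program is normally kept off. The members were chosen by what they are known to do: 5 early regulators, 21 genes of early meiotic recombination and synapsis, 28 middle genes of spore formation and 4 mid-late and late genes of the spore wall. All 58 were found in the table, 1 of them through a synonym, as *ZIP3* is listed as *CST9*.

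The study compared WT yeast with *ths1-C268A*, a mutant whose ThrRS (threonyl-tRNA synthetase) has lost the editing of Ser attached to tRNA for Thr. Both strains derive from the haploid MATa strain BY4741, so WT and mutant share its deletions of *HIS3*, *LEU2*, *MET17* and *URA3*. Cells grew in rich medium (YPD) at 30 °C to log phase and then spent 2 h at 37 °C, and RNA of 3 biological replicates per strain, A, B and C, was sequenced. The mutation changes the coding sequence, so *THS1* mRNA gives no check of the labels.

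In yeast, *IME1* starts the meiotic program when a diploid cell starves, and it acts with Ume6 at the promoters of early genes. Ume6 alone represses those genes in growing cells, and Sum1 represses the middle genes until Ndt80 takes its place. In haploid cells Rme1 keeps *IME1* low. Early genes make and repair the breaks that pair the chromosomes, middle genes build the prospore membrane that grows around each nucleus, and late genes finish the spore wall.

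The time classes had different shares of known upstream motifs. No motif search was used to place a gene in a class. Classes and motifs both came from textbook knowledge, however, so the shares may not be independent of the classes. The core of the Ume6 site, GGCGGC on either strand, was found in the 500 bp before the start codon in 571 of 5976 protein-coding genes (9.55%). Of the early genes, 12 of 20 searched (60%) had it, against 5 of 28 middle genes (17.9%), 2 of 5 regulators and 0 of 4 late genes. The middle sporulation element, to which Ndt80 and Sum1 bind, was searched as CACAAAA, as CACAAAT, as CGCAAAA and as CGCAAAT on both strands. It stood in 1830 of the 5976 promoters (30.6%), in 24 of 28 middle genes (85.7%), 3 of 20 early genes (15%), 1 of 5 regulators and 2 of 4 late genes. Neither set of letters contains the other, and 5 members held both. A match describes letters only. *HOP2* was left out because its end differs between the table and the R64 annotation.

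**Figure D1:**
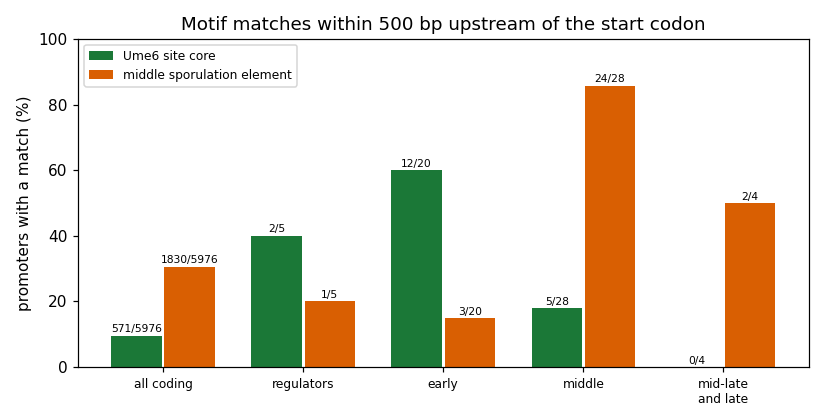
Bars give the share of promoters (percent, y axis) with a match to the Ume6 site core (green) or the middle sporulation element (orange) within 500 bp upstream of the start codon, for all protein-coding genes and for each time class. The fraction over each bar is promoters with a match over promoters searched. Green leads in the early class (12/20) and orange in the middle class (24/28).

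Stretches around a match are printed here for 6 members with large decreases (by at least 0.85 on the log2 scale) and for *IME2*, the regulator that fell, each with a match at least 80 bases upstream. They are a selection: *SPR3*, *SPS4* and *CDA2*, the last of which did not pass, had such a decrease and match and are not printed. *REC102* had such a decrease (-0.91) and no match to either motif. The stretches are from the R64 reference of RefSeq, written 5′ to 3′ on the strand of the gene, with the match in capitals. Those of *IME2* (chrX:220908-220967, plus strand), *SPO16* (chrVIII:402738-402797, minus strand), *DMC1* (chrV:548256-548315, plus strand) and *SAE3* (chrVIII:262630-262689, minus strand) hold the Ume6 site core, 455, 88, 138 and 109 bases upstream of the start codon. In *DMC1* the core is on the opposite strand and reads GCCGCC.
IME2: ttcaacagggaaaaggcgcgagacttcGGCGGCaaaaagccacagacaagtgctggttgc
SPO16: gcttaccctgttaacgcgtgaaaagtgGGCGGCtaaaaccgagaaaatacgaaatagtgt
DMC1: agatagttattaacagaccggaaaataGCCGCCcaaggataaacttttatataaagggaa
SAE3: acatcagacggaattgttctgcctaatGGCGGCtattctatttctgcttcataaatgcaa

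The middle genes *DON1* (chrIV:1010017-1010077, plus strand), *SPO19* (chrXVI:304198-304258, plus strand) and *SPR28* (chrIV:905117-905177, minus strand) hold the middle sporulation element 132, 162 and 98 bases upstream. In *SPR28* it is on the opposite strand and reads TTTTGTG. Among the genes printed, *DON1* also has the Ume6 site core, 161 bases upstream, and *SAE3* also has the middle sporulation element, 355 and 266 bases upstream. These further matches are not in capitals.
DON1: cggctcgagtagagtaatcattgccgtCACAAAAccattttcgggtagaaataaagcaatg
SPO19: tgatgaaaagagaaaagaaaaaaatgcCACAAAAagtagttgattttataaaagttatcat
SPR28: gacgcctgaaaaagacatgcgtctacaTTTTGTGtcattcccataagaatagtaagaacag

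Expression is given in FPKM, fragments relative to a gene's coding length and to the depth of the sample, so levels can be compared between genes. The genes held 16597937 to 19114041 fragments per sample. Fragments not assigned to a listed gene made up 18.3 to 18.7% of the FPKM denominator in WT and 10.6 to 13.4% in *ths1-C268A*. Where these fragments lay is not known. This share moved with the strain, and its part in the results below was not tested. Differences are given as the log2 fold change (log2FC) of the mutant over WT on log2(FPKM + 1), with *ths1-C268A* above WT as positive. With limma over the 6447 genes whose mean reached 1 FPKM, 916 genes were higher and 783 lower in *ths1-C268A* at an adjusted p under 0.05. Of these calls 53.9% were higher, 40.7% with the coding genes scaled to the same sum in each sample and 30.6% with limma-voom on fragments, which moved the median of all genes to -0.12. The 4 markers of MATa cells stood at 84.3 to 1321.5 FPKM over the 6 samples and the 4 markers of MATalpha cells at 2.06 to 43.8 FPKM. *STE2*, the receptor that MATa cells carry, was 263.8 FPKM in WT and 338.6 FPKM in the mutant, and *STE3*, the receptor of MATalpha cells, was 5.19 and 5.07 FPKM. In limma *MFA1* (0.85) and *STE2* (0.36) were higher in the mutant and *MF(ALPHA)1* (-2.04) was lower, and of 5 haploid-specific genes *HO* (-1.50) and *GPA1* (-0.36) were lower. The part of these in the results was not tested.

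All 58 members gave fragments in every sample. Their median level over the 6 samples was 13.5 FPKM, against 53.6 FPKM for the protein-coding genes in the table, and their levels ran from 0.541 to 124.4 FPKM. The highest were *MUM2*, *IME4* and *SPR6*, and the lowest were *OSW1*, *CDA2* and *SPS22*. Regulators stood highest, with a median of 39.7 FPKM, followed by 14.9 FPKM for the late genes, 13.1 FPKM for the early genes and 7.27 FPKM for the middle genes. In bulk RNA, fewer cells that express a gene and less RNA of it per cell cannot be told apart.

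Members were more often lower than higher in *ths1-C268A*. Of 57 that passed the filter on low values, 25 were lower (43.9%), against 12.1% of all genes tested, and 4 were higher (7.02%), against 14.2%. The other 28 did not pass the test. The median log2FC was -0.46 over the members and -0.0025 over all genes tested. The 3 samples of the mutant lay below the 3 of WT with no overlap for 35 members (21.1% of all genes tested did so), lay above for 6 (24.5% of all genes), and overlapped for 16. The summed level of the members was 1511, 1490 and 1541 FPKM in WT and 1271, 1189 and 1340 FPKM in the mutant, so each mutant sample lay below each WT sample.

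The count of calls depended on the WT libraries. Without WT A, B or C, 12, 11 and 12 members were lower and 2, 1 and 2 were higher, in limma. The shares of members lower were then 21.1, 19.3 and 21.4%, beside 6.51, 4.47 and 5.85% of all genes tested. Without A, B or C of *ths1-C268A*, 28, 21 and 21 were lower (49.1, 36.8 and 36.8%, beside 16.4, 8.16 and 10.1% of all genes tested). The calls of 9 lower members (*SPO16*, *REC102*, *ZIP1*, *SPO19*, *SPR28*, *DON1*, *ADY4*, *SPR6* and *IME2*) and of *IME1* held in every fit that left out a library.

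**Figure D2:**
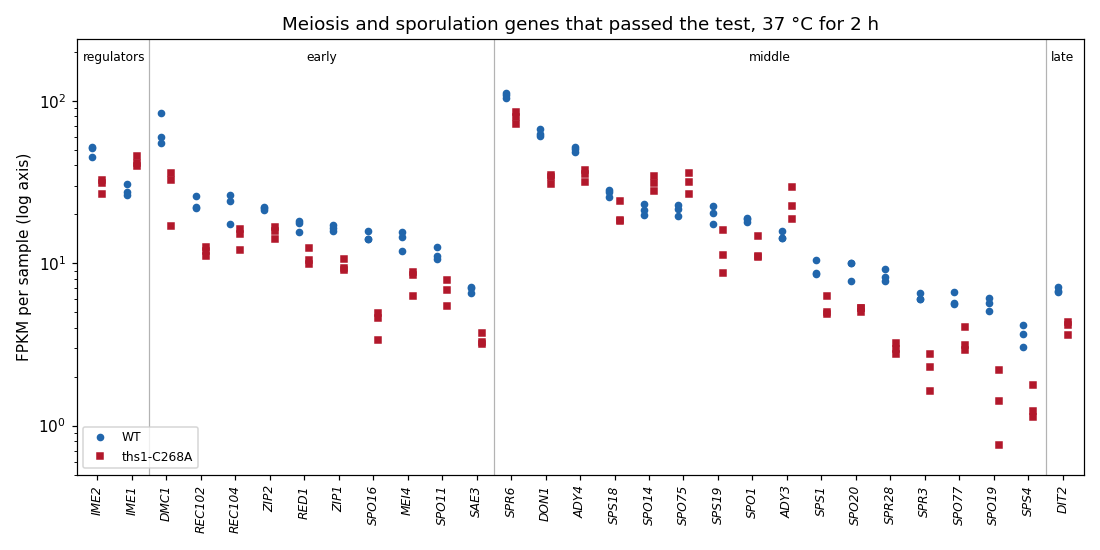
FPKM of each sample (log axis) for the 29 members that passed the test, by time class and then by WT mean, with WT as blue circles and *ths1-C268A* as red squares, 3 samples each. The mutant samples lie below WT for 25 members and above WT for *IME1*, *SPO14*, *SPO75* and *ADY3*.

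Because most members were low, they were set beside other genes of like level. Protein-coding genes with a mean of 1 to 30 FPKM were themselves more often lower than higher. Of 1521 such genes, 241 were lower (15.8%) and 101 higher (6.64%), with a median log2FC of -0.13. Of the 43 members in that range, 20 were lower (46.5%) and 3 higher (6.98%), with a median of -0.51. Of the 14 members at 30 FPKM or more, 5 were lower (35.7%, beside 12.1% of all genes tested) and 1 higher (7.14%, beside 14.2%), with a median of -0.27. Between 3 and 10 FPKM the medians were -0.67 for 18 members and -0.27 for 337 coding genes, and between 30 and 100 FPKM they were -0.36 for 12 members and 0.03 for 2856 coding genes.

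**Figure D3:**
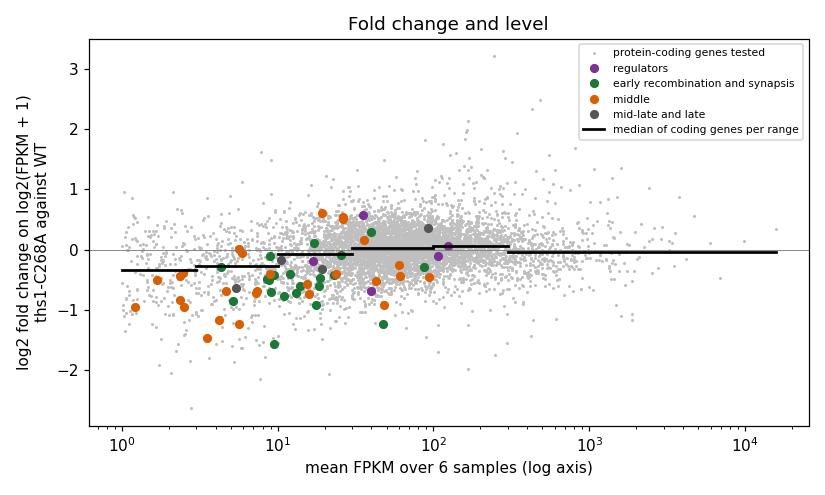
Log2 fold change of *ths1-C268A* against WT (y axis, log2(FPKM + 1)) by mean FPKM over the 6 samples (x axis, log), with protein-coding genes in grey, members coloured by time class and black bars for the median of coding genes in each range of level. Between 3 and 10 FPKM the bar stands at -0.27, and the members of that range have a median of -0.67.

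Gene length moved with the fold change as well. Across genes, which are not independent, Spearman's rho of log2FC with coding length was 0.37 over the 57 members and 0.37 over 6176 coding genes, all from the same 6 libraries. Of 11 members with coding sequences of 2000 bases or more, 3 were lower and 3 higher (27.3% each), with a median of -0.05. Of 46 shorter members tested, 22 were lower (47.8%) and 1, *IME1*, was higher (2.17%), with a median of -0.48. Over all genes tested, 12.1% were lower and 14.2% higher. With the trend of length removed from each sample, 27 members were lower (47.4%, beside 12.3% of the 6176 coding genes, the only genes in that fit) and 3 higher. *SPO14* (log2FC 0.30, adjusted p = 0.0587 from limma) and *REC104* (adjusted p = 0.0573) no longer passed, and *MSH4*, *MSH5* and *HOP1* passed as lower (0.0159 to 0.0275).

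*IME1* and *IME2* moved in opposite directions. *IME1*, the activator that starts the program (YJR094C, chromosome X, 604569 to 605651, minus strand), was 30.8, 26.1 and 27.4 FPKM in WT and 39.8, 41.4 and 45.9 FPKM in the mutant. The groups did not overlap, and *IME1* rose by 0.58 on the log2 scale (standard error 0.10, adjusted p = 0.00657 from limma), from 28.1 ± 2.45 to 42.4 ± 3.19 FPKM (SD, n = 3 each). *IME2* (YJL106W, chromosome X, 221390 to 223327, plus strand) encodes a kinase that is a target of Ime1 and drives entry into meiosis. It was 51.6, 51.1 and 44.9 FPKM in WT and 31.2, 26.7 and 32.5 FPKM in the mutant, again without overlap. *IME2* fell by 0.69 (standard error 0.11, adjusted p = 0.00382 from limma), from 49.2 ± 3.72 to 30.1 ± 3.01 FPKM (SD, n = 3 each). The nearest genes on each side of *IME1* and *IME2* did not pass the test.

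The other regulators did not pass. *NDT80*, the activator of middle genes, was 18.9, 17.5 and 17.1 FPKM in WT and 16.2, 13.3 and 17.5 FPKM in the mutant, with a log2FC of -0.19 (standard error 0.13, adjusted p = 0.308 from limma). *IME4*, which encodes the methyltransferase that makes m6A in mRNA, was 113.1, 110.3 and 105.4 FPKM in WT and 88.6, 92.5 and 128.9 FPKM in the mutant. Replicate C of the mutant was above all WT samples and A and B were below, and the log2FC was -0.10 (standard error 0.14, adjusted p = 0.594). Haploid cells are known to make an antisense RNA over *IME4*, and since strand is not known, it cannot be separated from the mRNA. *MUM2*, a partner of Ime4 and the highest member, was 121.1, 122.2 and 120.8 FPKM in WT and 119.6, 127.7 and 135.2 FPKM in the mutant (log2FC 0.07, standard error 0.08, adjusted p = 0.532). *YGL193C*, upstream of *IME4* on the opposite strand, was lower (-0.47, adjusted p = 0.0142 from limma).

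Of 19 further genes that repress the program or feed into it, 3 were higher (15.8%, beside 14.2% of all genes tested) and 1 lower, with a median log2FC of 0.11. Those that rose were *RIM11* (0.32, adjusted p = 0.0375 from limma) and *MCK1* (0.44, adjusted p = 0.0094), both kinases of the GSK-3 family that act upstream of early genes, and *RIM8* (0.52, adjusted p = 0.010), which acts in the Rim101 pathway. *SLZ1*, the other partner of Ime4, was 126.2 ± 11.7 FPKM in WT and 72.3 ± 22.9 FPKM in the mutant (SD, n = 3 each), a log2FC of -0.84 (adjusted p = 0.0241 from limma). The repressors themselves did not pass the test. *RME1* went from 121.7 ± 0.513 to 140.7 ± 11.9 FPKM (SD, n = 3 each; 0.20, adjusted p = 0.104 from limma). *UME6* was 102.5 and 103.2 FPKM (0.01, adjusted p = 0.963) and *SUM1* was 71.5 and 66.5 FPKM (-0.11, adjusted p = 0.410).

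Early recombination and synapsis genes fell or did not pass. Of 21 genes, 10 fell (47.6%, beside 12.1% of all genes tested), none rose (14.2% of all genes did) and 11 did not pass. Without overlap, 15 lay below WT (21.1% of all genes) and *ZIP3* alone lay above it. The median log2FC was -0.48, and the class median went from 16.3 FPKM in WT to 10.2 FPKM in the mutant. In single samples the median deviation from the WT mean lay between -0.03 and 0.03 in WT and was -0.56, -0.47 and -0.53 in mutant replicates A, B and C.

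**Figure D4:**
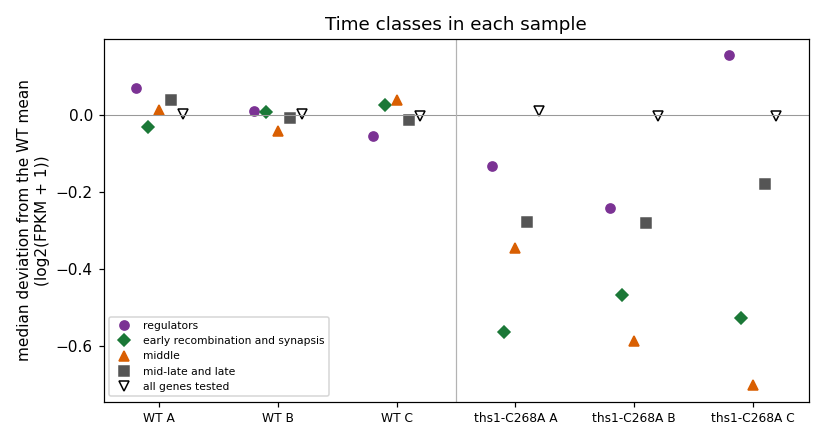
Median deviation of each time class from the WT mean (y axis, log2(FPKM + 1)) in each of the 6 samples, with all genes tested as open triangles. Early genes (diamonds) are at -0.56, -0.47 and -0.53 and middle genes (triangles) at -0.35, -0.59 and -0.70 in the mutant, while all genes stay between -0.004 and 0.011 there.

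Of 6 genes that make the double-strand breaks of meiosis, 4 were lower (66.7%, beside 12.1% of all genes tested). None was higher (14.2% of all genes tested were). This group, like the other groups by role, was made after the values were seen. *SPO11* (chromosome VIII, 62961 to 64157, minus strand), whose protein cuts the DNA, was 11.1, 12.6 and 10.7 FPKM in WT and 6.82, 5.45 and 7.89 FPKM in the mutant. It fell by 0.70 on the log2 scale (standard error 0.17, adjusted p = 0.0207 from limma). Its partners *REC102* and *REC104* fell too, by 0.91 and 0.60. *REC102* was 25.9, 21.8 and 22.2 FPKM in WT and 12.6, 11.9 and 11.1 FPKM in the mutant (standard error 0.12, adjusted p = 0.00216), a clear gap between the groups. *REC104* was 17.3, 24.1 and 26.1 FPKM in WT and 16.1, 12.0 and 15.1 FPKM in the mutant, so that WT A lay close to mutant A (standard error 0.18, adjusted p = 0.0375). *MEI4*, a further protein needed for breaks, was 15.6, 14.5 and 11.9 FPKM in WT and 6.27, 8.51 and 8.84 FPKM in the mutant. It fell by 0.76 (standard error 0.17, adjusted p = 0.0166). The remaining partners did not pass: *REC107* had a log2FC of -0.29 (adjusted p = 0.101) and *REC114* one of -0.09 (adjusted p = 0.617).

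Of the 4 strand exchange genes, 2 fell (50%, beside 12.1% of all genes tested) and none rose (14.2% of all genes did). *DMC1*, the meiotic recombinase (YER179W, chromosome V, 548421 to 549517, plus strand), was 55.0, 59.5 and 84.0 FPKM in WT and 32.4, 17.0 and 35.8 FPKM in the mutant. Both groups were spread widely, with WT C highest and mutant B lowest, and *DMC1* fell by 1.23 (standard error 0.27, adjusted p = 0.0140 from limma). *SAE3*, an accessory factor of Dmc1, was 7.0, 7.13 and 6.58 FPKM in WT and 3.17, 3.27 and 3.71 FPKM in the mutant. These levels rest on 122 and 59 fragments over 3 samples, and *SAE3* fell by 0.85 (standard error 0.19, adjusted p = 0.0152). *HOP2* and *MND1*, whose proteins work as a pair with Dmc1, had log2FCs of -0.29 (adjusted p = 0.345) and -0.42 (adjusted p = 0.102). *MND1* shares 13 bp with *YGL182C* on the same strand.

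On the chromosome axis, *RED1* was 18.1, 17.6 and 15.5 FPKM in WT and 9.95, 12.4 and 10.4 FPKM in the mutant, and fell by 0.60 (standard error 0.13, adjusted p = 0.0157 from limma). Its partner *HOP1* had a log2FC of -0.42 (adjusted p = 0.0622) with groups that did not overlap, and *MEK1*, the kinase of the axis, had one of -0.10 (adjusted p = 0.715). *ZIP1* encodes the filament that holds paired chromosomes together in the synaptonemal complex. It was 15.9, 16.4 and 17.1 FPKM in WT and 9.35, 9.04 and 10.6 FPKM in the mutant, and fell by 0.71 (standard error 0.12, adjusted p = 0.00638).

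The crossover factor *SPO16* (YHR153C, chromosome VIII, 402086 to 402682, minus strand) had the lowest log2FC of the members on the log2(FPKM + 1) scale, although the ratio of mean FPKM, mutant over WT, was lower for *SPO19* (0.259) and *CDA2* (0.260) than for *SPO16* (0.294). It was 14.0, 15.8 and 14.1 FPKM in WT and 4.94, 4.63 and 3.35 FPKM in the mutant, on 560 and 162 fragments. *SPO16* thus fell by 1.57 (standard error 0.18, adjusted p = 0.00101 from limma), and *RTT107* on the other side of its promoter, 283 bp away, fell by 0.71 (adjusted p = 0.00835). *ZIP2*, which binds Spo16, was 21.3, 21.9 and 22.2 FPKM in WT and 14.1, 16.8 and 15.7 FPKM in the mutant, and fell by 0.47 (standard error 0.11, adjusted p = 0.0181). Antisense RNA is known over *ZIP2* in haploid cells as well and cannot be separated from the mRNA. *MSH4* and *MSH5*, whose proteins form a crossover complex, had log2FCs of -0.48 (adjusted p = 0.0853) and -0.51 (adjusted p = 0.0579). In contrast, *SPO22* had one of 0.11 (adjusted p = 0.592). *ZIP3*, a SUMO ligase, was 35.1, 33.6 and 38.3 FPKM in WT and 39.8, 43.9 and 49.1 FPKM in the mutant, above WT without overlap, and its log2FC of 0.30 did not pass (standard error 0.10, adjusted p = 0.0622). *SPO13*, a regulator of chromosome segregation in meiosis I, had a log2FC of -0.40 (adjusted p = 0.0867).

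Several of these calls were lost with fewer libraries. Among the 7 early genes that lost one, the log2FC moved by at most 0.32 and kept its sign. That largest move was of *DMC1*, to -0.91 without mutant B, where it still passed. Without WT C, where its call was lost, *DMC1* was at -1.05. *SAE3*, *SPO11* and *ZIP2* lost the call without WT A, B or C alike. Their log2FCs ran from -0.90 to -0.82, -0.81 to -0.58 and -0.52 to -0.40 over the 6 fits. Without WT A, *SAE3*, *MEI4*, *SPO11*, *RED1* and *ZIP2* did not pass (adjusted p = 0.0558 to 0.0642 from limma), and without WT B the same genes and *REC104* did not (0.0715 to 0.129). Without WT C, *DMC1*, *SAE3*, *SPO11*, *REC104* and *ZIP2* did not pass (0.0520 to 0.129). *REC104* also failed without mutant B (adjusted p = 0.101) or C (0.0640).

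Introns were frequent in the early class, whose definition did not use them. Of the 21 early genes 9 have an intron (42.9%), against 329 of 6688 protein-coding genes in the table (4.92%), and 2 middle genes, *SPO1* and *OSW2*, have one. Of the 11 members with an intron, 5 were lower (45.5%: *DMC1*, *REC102*, *SAE3*, *MEI4* and *SPO1*) and none higher, and the median log2FC was -0.42. The 46 tested members without an intron had 20 lower (43.5%) and 4 higher (8.70%) and a median of -0.46. The shares over all genes tested were 12.1% lower and 14.2% higher. FPKM uses the spliced coding length, and spliced and unspliced RNA were not counted apart.

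Of 14 early meiotic genes outside the 58, none was higher (14.2% of all genes tested were), and the median log2FC was -0.49. Lower were 6 (42.9%, beside 12.1% of all genes tested). They were *GMC2* (-1.44, adjusted p = 0.00295 from limma) and *ECM11* (-1.09, adjusted p = 0.0376) of the central element of the synaptonemal complex, *CSM4* (-1.21, adjusted p = 0.0103), which acts in chromosome movement, *HED1* (-1.10, adjusted p = 0.0307), *PCH2* (-0.78, adjusted p = 0.00630), a checkpoint ATPase, and *AMA1* (-0.60, adjusted p = 0.0420), a meiotic activator of the anaphase-promoting complex.

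Of 27 middle genes tested, 13 fell (48.1%, beside 12.1% of all genes tested), 3 rose (11.1%, beside 14.2%) and 11 did not pass, and the median log2FC was -0.51. The class median went from 9.26 FPKM in WT to 5.74 FPKM in the mutant, and 17 genes lay below WT without overlap (21.1% of all genes did) and 3 above (24.5%). The spread among mutant samples was wider than for the early class, with median deviations of -0.35, -0.59 and -0.70 in replicates A, B and C. Whether the early and middle classes differed from each other was not tested.

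Both septins among the members, which lie under the growing prospore membrane, were lower (12.1% of all genes tested were). *SPR28* (chromosome IV, 903781 to 905052, minus strand) was 7.77, 8.17 and 9.22 FPKM in WT and 3.23, 2.76 and 2.96 FPKM in the mutant, on 681 and 240 fragments, and fell by 1.24 (standard error 0.19, adjusted p = 0.00382 from limma). *SPR3* was 6.04, 6.04 and 6.53 FPKM in WT and 2.76, 1.63 and 2.30 FPKM in the mutant, and fell by 1.17 (standard error 0.24, adjusted p = 0.0104). In both genes every mutant sample lay below 3.5 FPKM and every WT sample above 6.

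Of the genes for the 3 proteins at the leading edge of that membrane, 1 fell, 1 rose and 1 did not pass. The shares of 33.3% each stand beside 12.1% lower and 14.2% higher over all genes tested. *DON1* (YDR273W, chromosome IV, 1010176 to 1011273, plus strand) had the smallest adjusted p of all members. It was 62.4, 60.6 and 66.5 FPKM in WT and 33.8, 34.8 and 30.5 FPKM in the mutant, from 63.2 ± 3.06 to 33.0 ± 2.28 FPKM (SD, n = 3 each). *DON1* fell by 0.92 (standard error 0.09, adjusted p = 0.000532 from limma). *ADY3* was 15.8, 14.3 and 14.2 FPKM in WT and 18.7, 29.3 and 22.5 FPKM in the mutant, with mutant B highest, and rose by 0.61 (standard error 0.16, adjusted p = 0.0266). *GUD1*, 209 bp upstream of *ADY3* on the same strand, rose by 0.58 (adjusted p = 0.00589). *SSP1*, the essential subunit of that coat, had a log2FC of -0.43 (adjusted p = 0.316).

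At the outer plaque of the spindle pole, from which the membrane starts, *ADY4* was 50.6, 48.5 and 51.6 FPKM in WT and 37.6, 31.4 and 35.2 FPKM in the mutant. It fell by 0.52 (standard error 0.09, adjusted p = 0.00678 from limma), while *SPO21* and *SPO74* had log2FCs of 0.02 (adjusted p = 0.963) and -0.39 (adjusted p = 0.422). The nearest genes on both sides of *ADY4* were also lower: *BUR2*, 20 bp downstream on the opposite strand (-0.26, adjusted p = 0.0404), and the tRNA gene *tL(UAG)L1* (-1.25, adjusted p = 0.0121).

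Among 6 genes of the prospore membrane, 3 fell (50%, beside 12.1% of all genes tested) and 1 rose (16.7%, beside 14.2%). *SPO19*, a GPI-anchored protein of that membrane (chromosome XVI, 304387 to 305058, plus strand), was 6.09, 5.11 and 5.69 FPKM in WT and 2.20, 1.42 and 0.762 FPKM in the mutant, on 242 and 62 fragments. *SPO19* fell by 1.47 (standard error 0.30, adjusted p = 0.0105 from limma). *SPO20*, a SNARE that fuses vesicles into the membrane, was 10.02, 7.79 and 9.98 FPKM in WT and 5.29, 5.30 and 4.99 FPKM in the mutant, and fell by 0.72 (standard error 0.17, adjusted p = 0.0191). *SPO1*, which resembles a phospholipase B, was 18.0, 18.7 and 19.1 FPKM in WT and 10.96, 14.8 and 11.1 FPKM in the mutant, and fell by 0.57 (standard error 0.14, adjusted p = 0.0204). *SPO14*, the phospholipase D, went the other way. It was 23.2, 19.7 and 21.3 FPKM in WT and 27.8, 31.0 and 34.4 FPKM in the mutant, and rose by 0.52 (standard error 0.11, adjusted p = 0.0146). *SPO71* and *SPO73*, whose proteins act together in that membrane, had log2FCs of 0.17 (adjusted p = 0.193) and -0.44 (adjusted p = 0.0904).

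For the signalling genes, *SPS1*, a kinase, was 10.5, 8.61 and 8.69 FPKM in WT and 5.01, 6.27 and 4.84 FPKM in the mutant, and fell by 0.69 (standard error 0.18, adjusted p = 0.0244 from limma). *SMK1*, the MAP kinase of spore wall assembly, and *SSP2*, its activator, had log2FCs of -0.25 (adjusted p = 0.182) and -0.41 (adjusted p = 0.261), with groups that overlapped.

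The spore wall genes had the lowest median level of the groups by role, 2.35 FPKM. *SPO75* and *SPO77*, both needed to form the wall, passed in opposite directions. *SPO75* was 21.6, 19.5 and 22.7 FPKM in WT and 26.8, 36.1 and 31.4 FPKM in the mutant, and rose by 0.54 (standard error 0.13, adjusted p = 0.0191 from limma), as did *MMM1*, 73 bp downstream on the opposite strand (0.45, adjusted p = 0.00796). *SPO77* was 5.71, 6.67 and 5.61 FPKM in WT and 4.02, 3.12 and 2.92 FPKM in the mutant, and fell by 0.69 (standard error 0.21, adjusted p = 0.0440). The chitin deacetylase genes *CDA1* and *CDA2*, whose enzymes make the chitosan layer, had log2FCs of -0.83 (adjusted p = 0.0988) and -0.95 (adjusted p = 0.140). *CDA2* was 1.18, 1.66 and 2.93 FPKM in WT and 0.491, 0.856 and 0.149 FPKM in the mutant. *SPS22*, of the glucan layer, was 2.25, 1.84 and 2.36 FPKM in WT and 1.52, 0.757 and 1.44 FPKM in the mutant (-0.51, adjusted p = 0.290). All 3 lay below WT in every mutant sample, on 29 to 191 fragments per strain, and none passed the test. Of all genes tested, 21.1% lay below WT without overlap. *OSW2*, an outer spore wall gene, had a log2FC of -0.05 (adjusted p = 0.867).

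*OSW1*, also of the outer spore wall, was the only member under the filter and was not tested. It was 1.43, 0.602 and 0.821 FPKM in WT and 0.22, 0.12 and 0.0556 FPKM in the mutant. These levels rest on 26, 11 and 14 fragments in WT and 4, 2 and 1 in the mutant, and the ratio of the mean FPKM, mutant over WT, was 0.139.

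The last 4 middle genes, which had no group by role of their own, were all lower (100%, beside 12.1% of all genes tested). They were grouped after the values were seen, so no conclusion is drawn from this share. *SPR6*, the highest middle gene, was 111.4, 108.9 and 103.4 FPKM in WT and 84.7, 71.7 and 78.9 FPKM in the mutant, and fell by 0.46 (standard error 0.09, adjusted p = 0.00859 from limma). *SPS4* was 3.03, 3.65 and 4.15 FPKM in WT and 1.77, 1.14 and 1.24 FPKM in the mutant, and fell by 0.96 (standard error 0.29, adjusted p = 0.0430). *SPS18* and *SPS19* are divergent genes 300 bp apart on chromosome XIV. *SPS19*, a peroxisomal dienoyl-CoA reductase, was 17.5, 20.2 and 22.3 FPKM in WT and 16.0, 8.68 and 11.2 FPKM in the mutant, and fell by 0.73 (standard error 0.20, adjusted p = 0.0329). *SPS18* was 25.4, 28.1 and 27.3 FPKM in WT and 24.0, 18.1 and 18.4 FPKM in the mutant, and fell by 0.41 (standard error 0.13, adjusted p = 0.0470). In both genes mutant A lay just under the lowest WT sample. *SPS19* shares 473 bp with *YNL203C* on the opposite strand (9.18 and 8.90 FPKM, -0.03, adjusted p = 0.913), and *SPS18* shares 203 bp with *YNL205C* on the same strand (4.21 and 1.41 FPKM, -1.08, adjusted p = 0.0436), so their fragments cannot be told apart there.

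Calls of middle genes were lost with fewer libraries as well. Among the 11 that lost one, the log2FC moved by 0.07 to 0.21 at most and kept its sign. *DON1*, *SPR28*, *SPO19*, *ADY4* and *SPR6* passed without any 1 library. *SPS4*, *SPS19*, *SPO77*, *SPS1*, *SPO1*, *SPS18* and *ADY3* did not pass without WT A (adjusted p = 0.0532 to 0.106 from limma, with *SPO20* and *SPO75*), B (0.0520 to 0.175, with *SPR3*, *SPO14* and *SPO75*) or C (0.0520 to 0.15, with *SPO20* and *SPO14*). *SPS4*, *SPS19*, *SPO77*, *SPS18* and *ADY3* did not pass without mutant B (0.0558 to 0.116) or C (0.0534 to 0.110, with *SPS1*).

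**Figure D5:**
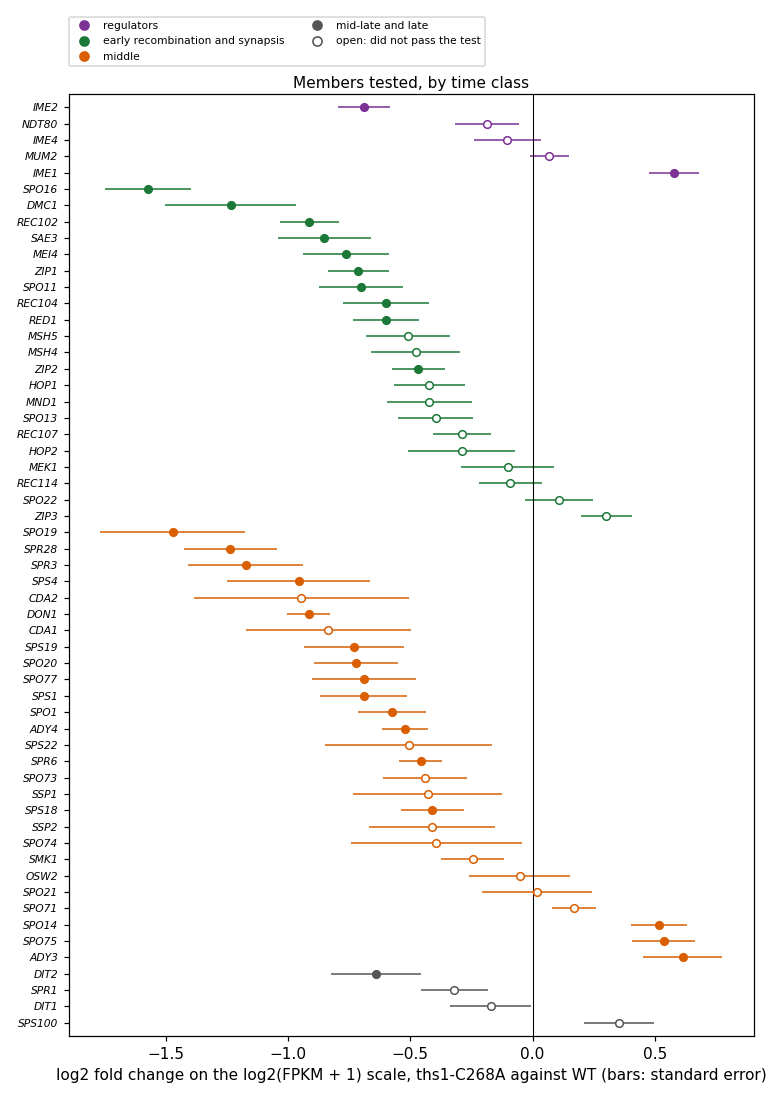
Log2 fold change of *ths1-C268A* against WT (x axis, log2(FPKM + 1) scale) for the 57 members tested, 1 row per gene, coloured by time class, with bars for the standard error. Filled points passed an adjusted p of 0.05 in limma and open points did not, with *SPO16* lowest at -1.57 and *ADY3* highest at 0.61.

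The 4 mid-late and late genes had a median log2FC of -0.25, and 1 was lower (25%, beside 12.1% of all genes tested). None was higher (14.2% of all genes tested were). *DIT2* and *DIT1*, neighbours that share a promoter region on chromosome IV, encode the enzymes that make the dityrosine of the outermost spore layer. *DIT2* was 7.17, 6.73 and 6.64 FPKM in WT and 3.61, 4.37 and 4.15 FPKM in the mutant, and fell by 0.64 (standard error 0.18, adjusted p = 0.0356 from limma). This call did not hold without any 1 of the 6 libraries (adjusted p = 0.0546 to 0.125), while the log2FC stayed between -0.69 and -0.58. *YDR401W* overlaps *DIT2* by 553 bp on the opposite strand and was listed at 0 in WT and 0.089 FPKM in the mutant. *DIT1* had a log2FC of -0.17 (adjusted p = 0.463) and *SPR1*, a glucanase of the spore, one of -0.32 (adjusted p = 0.117). *SPS100*, a spore wall protein, was 82.2, 75.5 and 83.1 FPKM in WT and 91.7, 89.6 and 131.7 FPKM in the mutant. All mutant samples were above WT, with C far above A and B, and the log2FC of 0.35 did not pass (standard error 0.14, adjusted p = 0.101).

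Of 13 spore genes outside the 58 that were found in the table, 11 were tested, with a median log2FC of -0.24. Of these, 4 were lower (36.4%, beside 12.1% of all genes tested) and 2 higher (18.2%, beside 14.2%). Those lower were *CRR1* (-0.88, adjusted p = 0.0175 from limma), a putative glycosidase of the spore wall, *DTR1* (-0.83, adjusted p = 0.0375), a dityrosine transporter, *MPC54* (-0.72, adjusted p = 0.0133) of the outer plaque, and *GAS2* (-0.47, adjusted p = 0.0487), a glucanosyltransferase. Those higher were *GSC2* (0.56, adjusted p = 0.00274), a glucan synthase subunit that is also used outside sporulation, and *SHC1* (0.36, adjusted p = 0.0395), an activator of chitin synthase.

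Members were lower both with and without each motif. Among the members with the Ume6 site core, 8 of 19 tested were lower and 2 higher (median -0.42), and among those without it 17 of 37 were lower and 2 higher (median -0.47). With the middle sporulation element 15 of 30 were lower and 2 higher (median -0.52), and without it 10 of 26 and 2 (median -0.42). Over all genes tested, 12.1% were lower and 14.2% higher. *IME1* had neither motif, while *ADY3* held both. The difference between members with and without a motif was not tested.

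Neighbours of the lower members were called about as often as other genes. Of the 25 nearest upstream genes of the lower members, 3 were lower, 3 higher and 19 did not pass, with a median log2FC of -0.13, beside 12.1% lower and 14.2% higher over all genes tested. Of the 24 tested downstream genes, 4 were lower, 3 higher and 17 did not pass (median -0.02). *PDA1*, upstream of *DMC1*, rose by 0.32 (adjusted p = 0.0266 from limma), *LAM4*, upstream of *SAE3*, by 0.45 (adjusted p = 0.00744), *SOK2*, upstream of *SPO20*, by 0.63 (adjusted p = 0.00428) and *RPS28B*, downstream of *RED1*, by 0.81 (adjusted p = 0.0111). *KEL1*, downstream of *REC104*, and *RAD9*, downstream of *SPR28*, rose by 0.39 and 0.52. *ERG28*, downstream of *MEI4*, *PEX9*, downstream of *SPO20*, and *RTT106*, downstream of *SPS18*, were lower (-0.36, -0.49 and -0.26).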

How the data were processed

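The authors deposited FPKM values per gene for the 6 samples, with coordinates and coding lengths. The submitters' processing notes list HISAT2 with no version. How fragments were counted, and whether by strand, was not given in the sources used here. FPKM times coding length gave whole fragments for 100% of values, within 0.01, and 3 fragments correspond to 0.137 to 0.151 per 1000000 fragments in these libraries, which covers counting error only. Chi-square per degree of freedom between replicates was 7.72 to 25.0 in WT and 39.4 to 53.2 in *ths1-C268A*, so no pair agreed within sampling noise.

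Strains were compared with limma 3.58.1 in R 4.3.3, with the variance allowed to follow the mean, on log2(FPKM + 1), for genes whose mean over the samples was 1 FPKM or more, two-sided, with Benjamini-Hochberg adjustment over all 6447 genes and strain as the only term. Fold changes on this scale understate those of low genes. Members, time classes, motifs and other lists came from textbook knowledge and were chosen with earlier results of these data known, and the groups by role were made after the values were seen. Full statistics are given for members that passed, for regulators and for the 2 members of each class with the largest moderated statistic. Levels per sample are given for these and for the 3 highest and 3 lowest members. Genes of other lists are named where they passed, with *RME1*, *UME6* and *SUM1*, and neighbours of called members and regulators where they passed, with overlapping genes. Other neighbours are given as counts or not at all, which departs from the rule as first written. Other genes were named after their values were seen. Chromosome coordinates are those of the table and of R64.

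Alternatives were pseudocounts of 0.1 and 5, other filters, median-ratio scaling, an equal coding total, limma without trend, limma-voom on fragments, a length correction by loess with a span of 0.5, the replicate letters as a block, and each library left out. Scripts were tested on simulated data.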

Additional observations from a re-analysis of the deposited data

How the results depend on the processing

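Of the 25 lower members, 9 passed in every alternative that tested them and 17 in every such alternative that kept all libraries, and of the 4 higher members 1 and 3 did. A mean of at least 10 FPKM left several of them, such as *SPO16*, *SPO19* and *SPR28*, untested. With a mean of at least 10 FPKM, 14 of 33 members tested were lower (42.4%, beside 12.9% of all genes tested). Limma-voom on fragments called 34 members (59.6%) and 1388 of all genes (21.5%) lower. Leaving out each library gave 11 to 28 lower and 1 to 5 higher members, and 288 to 1054 lower and 356 to 1089 higher genes overall. The median log2 fold change of the early class was -0.53 and -0.36 with pseudocounts of 0.1 and 5, -0.65 with limma-voom, -0.59 after the length correction and -0.51 to -0.43 with a library left out. The middle class had a median of -0.73 with limma-voom, and the late class -0.38 with limma-voom and -0.17 at 10 FPKM or more. No called member changed sign. Of those not called, *SPO22* turned to -0.0029 with limma-voom and -0.078 after the length correction, *SPO21* to -0.024 with an equal coding total, -0.11 with limma-voom and -0.073 after the length correction, *SPO71* to -0.041 after the length correction and *MUM2* to -0.047 with limma-voom. With a library left out, *SPO22* ran from -0.015 to 0.21, *SPO21* from -0.17 to 0.12, *MEK1* from -0.24 to 0.081, *REC114* from -0.16 to 0.040 and *OSW2* from -0.18 to 0.039. The cause was not tested. The replicate letters did not pair the samples, with correlations of same-letter deviations of -0.23, 0.06 and -0.01. With the letters as a block, 17 members were lower (29.8%, beside 9.20% of all genes tested). In that fit 4 members were higher, beside 683 of all 6447 genes tested. Low depth stood behind some members, such as *OSW1* and *CDA2* with 7 and 29 fragments over the mutant samples.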
